A study of Mus musculus with 200 samples.

Results

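The blood-brain barrier genes were 10 genes chosen by name, and all 10 were found among the 56941 genes of the deposited table. They were Cldn5, Ocln, Tjp1, Cdh5 and Pecam1, which build or anchor the junctions between endothelial cells, Slc2a1, Slco1c1, Mfsd2a and Abcb1a, which carry substances across those cells, and Plvap, a marker of leaky, fenestrated vessels. RNA of 1 brain hemisphere was sequenced from each of 200 mice, aged 3.3 to 7.67 months, after closed head injury (CHI), an impact on the intact skull under isoflurane, or after sham surgery with anaesthesia and a scalp incision only. The mice were C57BL/6J (43 CHI, 18 sham), IL-1R1 gKO (37 CHI, 18 sham), IL-1R1 eRestore (33 CHI, 17 sham) and IL-1R1 nRestore (20 CHI, 14 sham), and each was killed at 9, 24 or 72 h and perfused with cold saline. At 9 h the CHI and sham groups held 15 and 6 C57BL/6J, 13 and 6 gKO, 12 and 6 eRestore and 6 and 4 nRestore mice. Both sexes were used (102 female and 98 male), except that all nRestore mice at 72 h were male.

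The sample labels name the last 3 strains only as written here, after the receptor of interleukin 1, and do not say which cells carry the receptor or which promoter drives it. The RNA of Il1r1, which encodes this receptor, was not lower in sham gKO mice (10.2 ± 3.24 CPM, mean ± SD, n = 18, where CPM is the read count scaled to normalised library size) than in sham C57BL/6J mice (4.98 ± 1.41, n = 18). In sham eRestore and nRestore mice it was 8.22 ± 3.17 (n = 17) and 8.92 ± 1.54 CPM (n = 14), so RNA levels did not separate the strains in the order of their names, and strains are called here by their labels. Each mouse had between 14857985 and 57355676 estimated counts (median 20258936), and the lowest count of any member in any mouse was 42, for Plvap. In 2 of the 200 mice (1 sham eRestore mouse at 24 h and 1 CHI nRestore mouse at 72 h) sex-linked RNA went against the sex label, and leaving both out changed no count of members called. All 9 h mice came from 3 experiments that held no mice of the later times, so time and experiment cannot be told apart in levels, and surgery always took place in the morning, so the time of day at collection also differed.

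Brain capillaries are lined by endothelial cells that are sealed by tight junctions, so that solutes cross the cells and not the gaps between them. Glucose, thyroid hormone and long-chain lipids enter through dedicated carriers, drugs are pumped back into blood, and transport in vesicles is kept low, in part by Mfsd2a. The barrier is known to open after traumatic brain injury. RNA of a whole hemisphere holds few endothelial transcripts among many neuronal and glial ones, and in such a bulk sample fewer cells of a type and less RNA per cell cannot be told apart. The endothelial markers Tek, Tie1, Kdr, Flt1 and 14 others were present at both surgeries, and at 9 h their summed level was 255 to 471 CPM after CHI (median 341) and 265 to 452 CPM after sham surgery (median 343).

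At 9 h after CHI, the lipid carrier gene Mfsd2a and the glucose transporter gene Slc2a1 rose in C57BL/6J mice, as did the endothelial adhesion gene Pecam1, and the thyroid hormone transporter gene Slco1c1 fell. Over all 4 strains Mfsd2a was 1.47-fold and the claudin gene Cldn5 1.29-fold higher at 9 h, and Slco1c1 was 0.761-fold the sham level. At 9 h, 14.1% of all genes tested passed in C57BL/6J mice and 23.9% over all strains. At 24 and 72 h none of the 10 genes passed the test in any strain, beside 0% to 0.404% of all genes in a strain. Each difference was tested in edgeR (quasi-likelihood), with terms for sex and age, and the adjusted p given throughout is from Benjamini-Hochberg correction over all genes tested. The p-values measure the spread between these mice.

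The promoter sequences of the 3 transport genes that changed in C57BL/6J mice and of Cldn5 are shown to place these genes, as the 250 bases before the RefSeq start site (GRCm38.p6), with the GC box GGGCGG or its reverse complement in capitals. Slc2a1 lies at chr4:119108495-119108744 on the plus strand, Mfsd2a at chr4:122961189-122961438 on the minus strand, Slco1c1 at chr6:141524104-141524353 on the plus strand and Cldn5 at chr16:18776597-18776846 on the plus strand.
Slc2a1: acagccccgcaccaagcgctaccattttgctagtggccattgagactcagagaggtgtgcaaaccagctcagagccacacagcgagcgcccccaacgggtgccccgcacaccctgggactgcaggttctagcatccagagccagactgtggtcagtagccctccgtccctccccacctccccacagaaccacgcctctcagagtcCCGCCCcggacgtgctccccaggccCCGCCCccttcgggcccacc
Mfsd2a: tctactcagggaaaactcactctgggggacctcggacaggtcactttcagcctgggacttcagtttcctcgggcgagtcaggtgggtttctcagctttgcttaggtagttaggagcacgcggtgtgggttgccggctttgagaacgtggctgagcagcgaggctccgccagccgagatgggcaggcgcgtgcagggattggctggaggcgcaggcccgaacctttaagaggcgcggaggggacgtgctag
Slco1c1: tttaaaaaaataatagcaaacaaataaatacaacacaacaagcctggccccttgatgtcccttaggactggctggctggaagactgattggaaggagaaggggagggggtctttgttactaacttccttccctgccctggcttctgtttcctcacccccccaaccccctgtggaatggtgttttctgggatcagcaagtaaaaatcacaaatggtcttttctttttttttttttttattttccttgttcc
Cldn5: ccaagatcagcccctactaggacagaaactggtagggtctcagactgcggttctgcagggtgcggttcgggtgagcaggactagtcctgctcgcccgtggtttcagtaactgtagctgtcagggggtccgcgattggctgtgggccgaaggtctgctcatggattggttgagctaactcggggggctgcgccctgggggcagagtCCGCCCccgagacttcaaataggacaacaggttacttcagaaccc
Slc2a1 held 2 GC boxes and Cldn5 held 1, and the Mfsd2a and Slco1c1 sequences held none. Of the 32841 RefSeq promoter windows of this length, 32.7% held a GC box on either strand. None of the 4 sequences held the E-box CACGTG (in 6.02% of all windows), the TATA box TATAAA (12.4%), the glucocorticoid receptor core AGAACA (16.1%) or the ETS motif CCGGAA (12.0%), each searched on both strands. The bases G and C made up 66.4% of the Slc2a1, 61.6% of the Mfsd2a, 59.6% of the Cldn5 and 42.8% of the Slco1c1 window, beside a median of 52.4% over all windows. A RefSeq promoter entry was found for 7 of the 10 members, not for Cdh5, Pecam1 or Plvap.

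In the GENCODE vM39 annotation of GRCm39, the build the reads were aligned to, all 10 members are protein-coding. Mfsd2a spans chr4:122840643-122855244 and Slc2a1 chr4:118965908-118996365, on opposite strands of the same chromosome. Slco1c1 spans chr6:141469705-141516710 and Cldn5, a gene of 1.4 kb with 1 annotated transcript, chr16:18595597-18597012, and neither overlaps another gene. Exons of Ocln, Cdh5, Slc2a1, Abcb1a, Mfsd2a and Plvap overlap the span of genes on the other strand, which for Plvap is the protein-coding Gtpbp3. Whether they also overlap exons of those genes was not examined. Whether the counting used strand is not given in the sources used here, so any reads shared with those genes cannot be assigned with certainty. Counts of the other 9 members were whole numbers in every mouse (within 0.01), but those of Abcb1a were not, as happens where reads are shared out between genes. Abcb1a has a near copy, Abcb1b, and its values are uncertain.

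The order of the members was set in sham mice per transcript length, in TPM (transcripts scaled for length and depth, 67 mice, mean ± SD). Slc2a1 (55.8 ± 15.8), the junction scaffold Tjp1 (55.2 ± 9.64) and Slco1c1 (53.2 ± 23.4) were the highest, followed by Cldn5 (35.2 ± 9.71). The efflux pump Abcb1a (17.0 ± 3.12), Mfsd2a (17.5 ± 5.9) and the endothelial adhesion gene Pecam1 (13.0 ± 2.67) lay between these and the junction genes Ocln (6.94 ± 1.44) and Cdh5 (6.79 ± 1.74), and Plvap was the lowest (4.05 ± 1.06). Every pair of neighbours in this order overlapped in range over the 67 mice. All genes were measured in the same mice, and their order within each mouse was not tested.

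**Figure D1:**
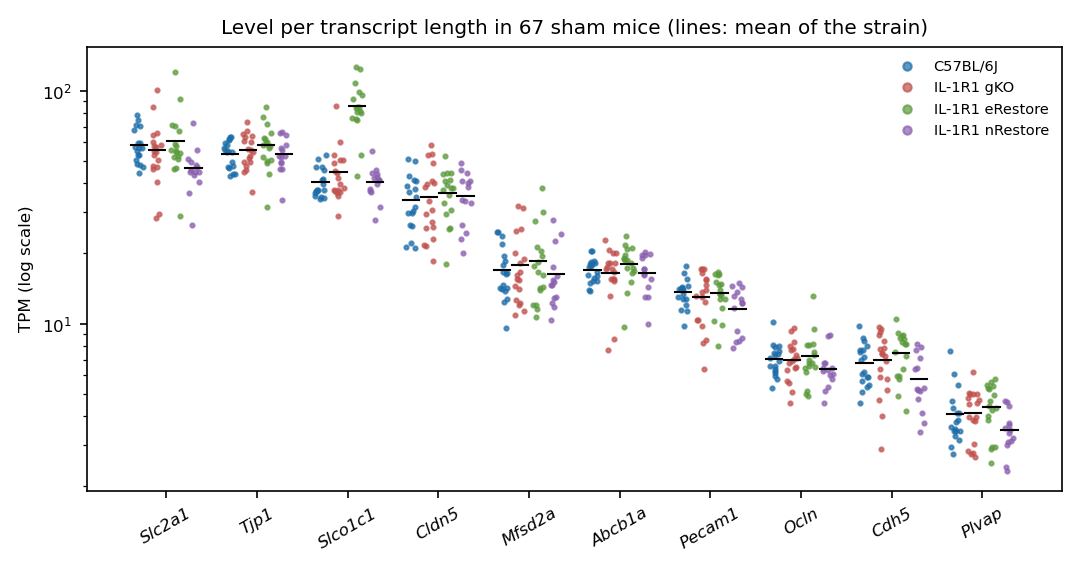
Level of the 10 genes in sham mice (y axis, TPM on a log scale), with 1 point per mouse, colours for the strains and a line at the mean of each strain. Slco1c1 of IL-1R1 eRestore mice sits at a mean of 86.1 TPM, above 40.4 TPM in C57BL/6J mice.

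In C57BL/6J mice at 9 h, 4 of the 10 members passed the test, beside 14.1% of the 16967 genes tested. Mfsd2a, which carries lysophosphatidylcholine with docosahexaenoic acid into the brain and restrains vesicle transport, ranged from 11.9 to 24.4 CPM in sham mice (median 20.3, n = 6) and from 26.7 to 48 CPM in CHI mice (median 33.7, n = 15). All 15 CHI mice lay above every sham mouse. The log2 fold change was 0.82 ± 0.12 (SE), or 1.77-fold (adjusted p = 4.43e-05).

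Slc2a1, the glucose transporter GLUT1 of endothelial cells and astrocytes, ranged from 83.8 to 140.6 CPM in sham mice (median 120.2) and from 139.9 to 201.9 CPM in CHI mice (median 165.7). Of the 15 CHI mice, 14 lay above every sham mouse, and the groups overlapped by 1 mouse. Its log2 fold change was 0.53 ± 0.07 (adjusted p = 1.03e-05). Pecam1, which encodes an adhesion protein of endothelial contacts, ranged from 15.6 to 27.2 CPM in sham mice (median 23.5) and from 22.4 to 36.2 CPM in CHI mice (median 30.7), with an increase of 0.39 ± 0.10 on the log2 scale (adjusted p = 0.00661). These groups overlapped, and 11 of 15 CHI mice lay above every sham mouse.

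Slco1c1, which encodes the thyroxine transporter OATP1C1 of capillaries and choroid plexus, moved the other way. It ranged from 50.7 to 86.2 CPM in sham mice (median 72.9) and from 25.7 to 55.7 CPM in CHI mice (median 43.7), and 14 of 15 CHI mice lay below every sham mouse. The log2 fold change was -0.81 ± 0.12 (adjusted p = 0.000109), or 0.571-fold.

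Among the other junction genes of C57BL/6J mice at 9 h, the log2 fold change was 0.14 ± 0.12 for Cldn5, the main claudin of brain capillaries (18.7 ± 3.19 CPM in CHI and 16.8 ± 4.2 CPM in sham mice), -0.09 ± 0.12 for Ocln, which encodes the tight junction protein occludin, -0.13 ± 0.07 for Tjp1, which encodes the scaffold ZO-1, and 0.06 ± 0.12 for Cdh5, which encodes VE-cadherin of adherens junctions. None of these passed the test, and the intervals of 95% reached from -0.09 to 0.37 for Cldn5 and from -0.26 to 0.00 for Tjp1. The efflux pump gene Abcb1a had a log2 fold change of 0.03 ± 0.10 and Plvap one of 0.27 ± 0.17, and neither passed. The median log2 fold change was 0.10 over the 10 members and -0.01 over all genes tested.

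**Figure D2:**
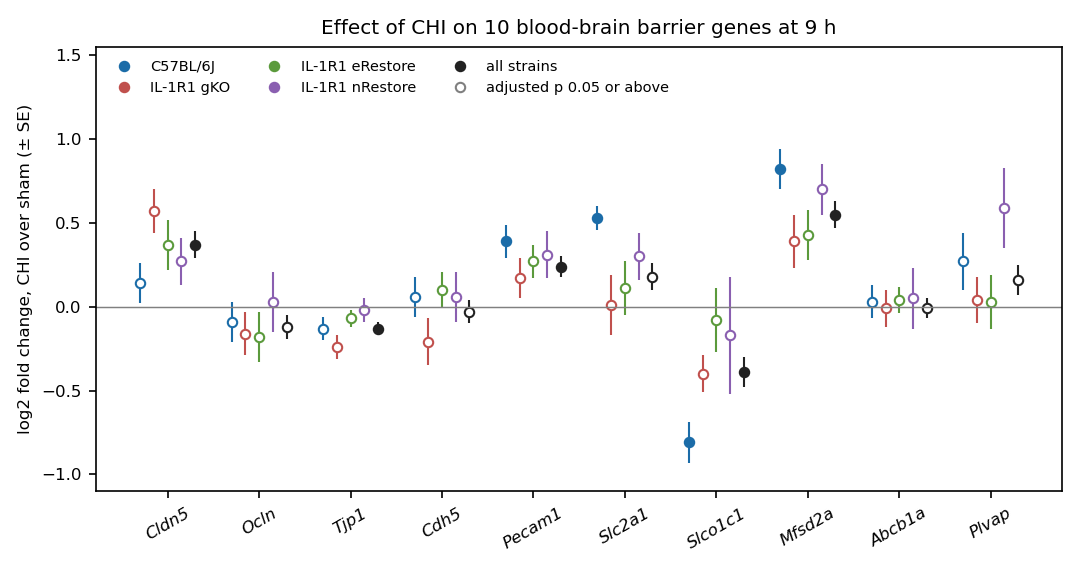
Log2 fold change of CHI over sham at 9 h (y axis, bars show SE) of the 10 genes in each strain and over all strains, with filled points for an adjusted p under 0.05. Filled points stand above 0 for Mfsd2a (0.82), Slc2a1 (0.53) and Pecam1 (0.39) and below 0 for Slco1c1 (-0.81) in C57BL/6J mice.

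The C57BL/6J mice at 9 h came from 2 experiments, which the labels name eIL-1-76 and eIL-1-80. Within eIL-1-76 (10 CHI and 4 sham mice) the log2 fold change was 0.65 for Mfsd2a, 0.44 for Slc2a1 and -0.72 for Slco1c1. Within eIL-1-80 (5 CHI and 2 sham mice) it was 1.25, 0.72 and -0.98, and there Slco1c1 (adjusted p = 0.17) and Pecam1 (0.276) did not pass the test. Markers of the choroid plexus, which also makes Slco1c1, differed between the groups at 9 h: over all strains 9 of 10 were lower after CHI (median over the list -1.84 on the log2 scale), and their summed level ranged from 6.61 to 1750 CPM in CHI mice (median 25.7) and from 10.9 to 3790 CPM in sham mice (median 39.6). None of these markers passed in C57BL/6J or any other strain alone, and the median over those tested was -1.87 in C57BL/6J, -0.80 in gKO, -2.96 in eRestore and 1.07 in nRestore mice. The defining transcript Ttr ranged from 1.37 to 1470 CPM after CHI and from 3.94 to 3070 CPM after sham surgery. With the mean level of these markers as a covariate, the log2 fold change of Slco1c1 in C57BL/6J mice was -0.76 (adjusted p = 0.00032) and that of Mfsd2a was 0.84. With the mean level of the endothelial markers as a covariate, the values were -0.80 and 0.83.

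In gKO mice at 9 h none of the 10 members passed the test, beside 0.199% of 16604 genes. An unadjusted p under 0.05 was held by 1784 of all genes and by 4 members. With DESeq2 in place of edgeR 3 passed (Cldn5, Tjp1 and Slco1c1), beside 218 of all genes. Tjp1 and Slco1c1 each passed under only 1 of 15 alternatives. With gene-length offsets in DESeq2, Tjp1 had an adjusted p of 0.753. Cldn5 ranged from 11.9 to 17.2 CPM in sham mice (median 15.4, n = 6) and from 13 to 35.5 CPM in CHI mice (median 20, n = 13), and 11 of 13 CHI mice lay above every sham mouse (log2 fold change 0.57 ± 0.13, adjusted p = 0.0795). Tjp1 was at 107.1 ± 14.5 CPM in CHI and 128.6 ± 11.2 CPM in sham mice (-0.24 ± 0.07, adjusted p = 0.136). Slco1c1 was at 52.9 ± 9.91 and 70.9 ± 8.76 CPM (-0.40 ± 0.11, adjusted p = 0.122), with 10 of 13 CHI mice below every sham mouse. Mfsd2a was at 30.3 ± 6.8 and 23.2 ± 5.77 CPM (0.39 ± 0.16, adjusted p = 0.371), and Slc2a1 was at 118.6 ± 31.9 and 119.2 ± 32.5 CPM (0.01 ± 0.18).

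In eRestore mice none of the 10 passed at 9 h, beside 7.34% of 16652 genes. An unadjusted p under 0.05 was held by 4316 of all genes and by 3 members. These were Mfsd2a (32.1 ± 5.39 CPM in 12 CHI and 23.6 ± 6.77 CPM in 6 sham mice, log2 fold change 0.43 ± 0.15, adjusted p = 0.076), Pecam1 (0.27 ± 0.10, adjusted p = 0.0874) and Cldn5 (0.37 ± 0.15, adjusted p = 0.121). With DESeq2, Mfsd2a passed (adjusted p = 0.0259). Without 1 sham mouse, replicate 6, both Mfsd2a and Pecam1 passed in edgeR. Each passed in only 1 of 6 fits that left out a sham mouse, with adjusted p up to 0.183 and 0.236. In the largest experiment alone, edgeR gave them an adjusted p of 0.582 and 0.694. Slco1c1 was at 140.2 ± 24.7 CPM in sham mice and ranged from 57.5 to 185.9 CPM in CHI mice, and its log2 fold change was -0.08 ± 0.19.

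In nRestore mice none passed at 9 h, beside 0.608% of 16788 genes. An unadjusted p under 0.05 was held by 2207 of all genes and by 3 members. Mfsd2a was at 23.6, 21.5, 15.4 and 19.6 CPM in the 4 sham mice and ranged from 25.7 to 39.7 CPM in the 6 CHI mice (median 28.7). The groups did not overlap, and the log2 fold change was 0.70 ± 0.15 (adjusted p = 0.0504). It passed with DESeq2 (adjusted p = 0.00101), without covariates (0.0431), and without sham replicate 1 or 2, but had an adjusted p of 0.436 without sham replicate 3. Plvap, which builds the diaphragms of fenestrae and caveolae, was at 4.56 ± 1.1 CPM in CHI and 3.42 ± 0.883 CPM in sham mice (0.59 ± 0.24, adjusted p = 0.296).

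**Figure D3:**
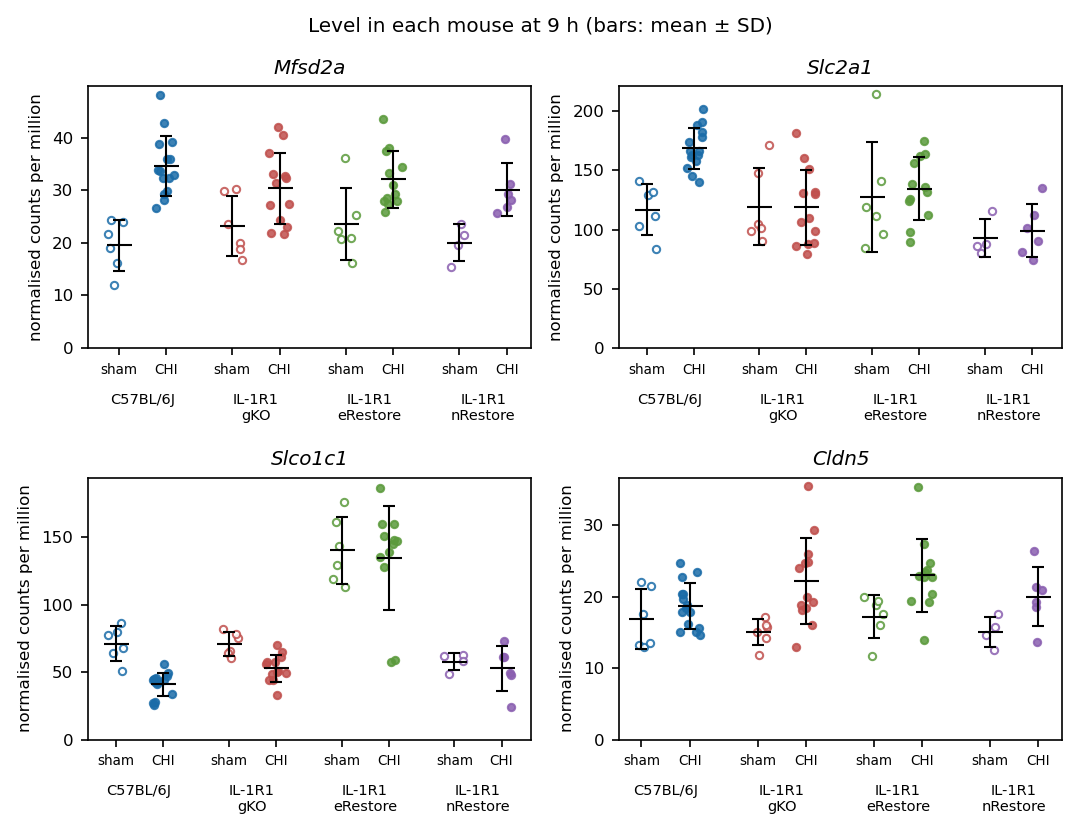
CPM (y axis, from 0) of Mfsd2a, Slc2a1, Slco1c1 and Cldn5 in each mouse at 9 h, with open points for sham, filled points for CHI and bars for mean ± SD. The 15 C57BL/6J CHI mice lie at 26.7 CPM or more for Mfsd2a and their sham mice at 24.4 CPM or less, and eRestore mice stand above the other strains for Slco1c1 except 2 CHI mice.

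With the 46 CHI and 22 sham mice of all strains in 1 fit, 5 of the 10 members passed at 9 h, beside 23.9% of 18741 genes. Mfsd2a rose (log2 fold change 0.55 ± 0.08, adjusted p = 1.31e-07), as did Cldn5 (0.37 ± 0.08, adjusted p = 0.000167) and Pecam1 (0.24 ± 0.06, adjusted p = 0.00316). Slco1c1 (-0.39 ± 0.09, adjusted p = 0.000944) and Tjp1 (-0.13 ± 0.04, adjusted p = 0.00399) fell. Slc2a1 had a log2 fold change of 0.18 ± 0.08 (adjusted p = 0.119), Plvap of 0.16 ± 0.09, Ocln of -0.12 ± 0.07, Cdh5 of -0.03 ± 0.07 and Abcb1a of -0.01 ± 0.06, and none of these passed.

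Some of these calls rested on a strain. Without the C57BL/6J mice, Mfsd2a (0.45, adjusted p = 0.000581), Cldn5 (0.46, adjusted p = 0.000231) and Tjp1 (-0.14, adjusted p = 0.0105) still passed, whereas Slco1c1 (-0.22, adjusted p = 0.186) and Pecam1 (0.18, adjusted p = 0.115) did not. Without the gKO mice Tjp1 did not pass (-0.07, adjusted p = 0.185) and Slc2a1 did (0.31, adjusted p = 0.00237). Without the eRestore mice Slco1c1 had a log2 fold change of -0.51 (adjusted p = 0.000127). With each of the 3 experiments of the 9 h mice fitted alone, Mfsd2a was the only member that passed in all 3. Another member also passed in eIL-1-76 and another in eIL-1-80. Of all genes, 327 passed in the experiment labelled TM-2-33, 1530 in eIL-1-76 and 1490 in eIL-1-80.

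A call in 1 strain and not in another is no difference, so the difference of the CHI effect from that in C57BL/6J mice was tested. None of the 10 members passed at 9 h in gKO mice (0% of all 18741 genes passed), in eRestore mice (0.0107% passed) or in nRestore mice (0.00534% passed). An unadjusted p under 0.05 was held by 3, 2 and 1 of them, beside 1199, 1608 and 1042 of all genes. The differences with the smallest p were those of Slco1c1 in eRestore mice (0.73, interval of 95% from 0.26 to 1.19, unadjusted p = 0.00319, adjusted p = 0.267) and of Slc2a1 in gKO mice (-0.53, from -0.95 to -0.11, unadjusted p = 0.0167, adjusted p = 0.661). For Mfsd2a the difference was -0.43 in gKO (from -0.83 to -0.04), -0.38 in eRestore (from -0.78 to 0.02) and -0.20 in nRestore mice (from -0.66 to 0.27). For Cldn5 it was 0.44 in gKO mice (from 0.06 to 0.83). Between males and females, no member passed the test of a difference in CHI effect at 9 h (0% of all genes passed). None had an unadjusted p under 0.05, beside 429 of all genes. Within the C57BL/6J strain none passed either, and 2 had an unadjusted p under 0.05, with a lower CHI effect in males for Pecam1 (difference -0.67 ± 0.13, unadjusted p = 4.4e-05, adjusted p = 0.618) and Cdh5 (-0.64 ± 0.20, unadjusted p = 0.00389, adjusted p = 0.999). Over all strains, the intervals of that difference reached from -0.27 to 0.35 for Mfsd2a and from -0.49 to 0.26 for Slco1c1.

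At 24 and 72 h, none of the 10 members passed the test in any strain or over all strains. In each of these 10 comparisons 0 or 1 member had an unadjusted p under 0.05, beside 376 to 2581 of all genes. DESeq2 also called 0 members. The share of all genes that passed at 24 h was 0.404% in C57BL/6J, 0.0059% in gKO, 0% in eRestore and 0% in nRestore mice and 1.48% over all strains. At 72 h it was 0% in C57BL/6J, 0% in gKO, 0.00605% in eRestore and 0.0121% in nRestore mice and 0.706% over all strains. In C57BL/6J mice Mfsd2a ranged from 11.2 to 16.1 CPM in CHI (median 14.4, n = 14) and from 10.4 to 17.1 CPM in sham mice (median 14.2, n = 6) at 24 h, a log2 fold change of 0.00 ± 0.09. Slco1c1 ranged from 51.3 to 67.5 CPM and from 54.2 to 76.5 CPM (0.00 ± 0.06), and at 72 h from 51.7 to 78.2 CPM and from 51 to 63.6 CPM (0.07 ± 0.07). The groups thus overlapped at both times. Plvap had a log2 fold change of 0.30 ± 0.11 in C57BL/6J mice at 24 h (6 of 14 CHI mice above every sham mouse, unadjusted p = 0.0129, adjusted p = 0.374), and Slc2a1 one of 0.26 ± 0.10 in nRestore mice at 24 h (unadjusted p = 0.0165, adjusted p = 0.955).

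**Figure D4:**
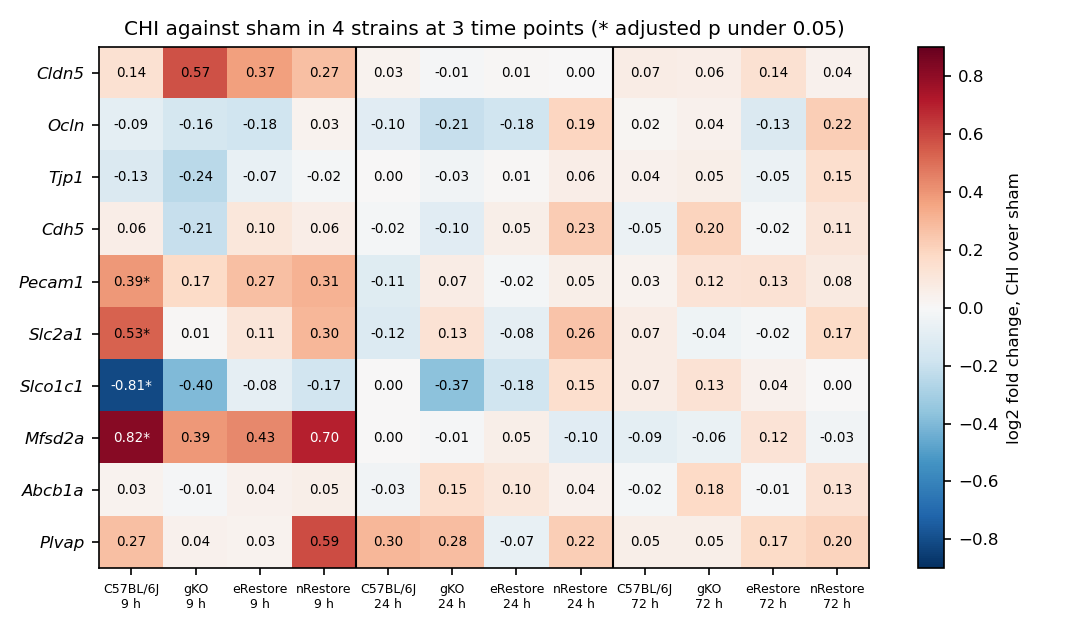
Log2 fold change of CHI over sham (colour and printed value) of the 10 genes in 4 strains at 9, 24 and 72 h, with an asterisk for an adjusted p under 0.05. The asterisks are those of Pecam1 (0.39), Slc2a1 (0.53), Slco1c1 (-0.81) and Mfsd2a (0.82) in C57BL/6J mice at 9 h.

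Whether the effect of CHI changed with time was tested in a fit of all 200 mice, with each effect taken against sham mice of the same time. Between 9 and 24 h the effect differed for 3 members over the mean of the strains, beside 9.63% of 20111 genes, which were Mfsd2a (by 0.56 ± 0.10, adjusted p = 5.65e-06), Cldn5 (by 0.40 ± 0.09, adjusted p = 0.000946) and Pecam1 (by 0.29 ± 0.08, adjusted p = 0.00684). In C57BL/6J mice it differed for 4 members, beside 4.3% of genes, namely Mfsd2a, Slco1c1, Slc2a1 and Pecam1. Between 9 and 72 h it differed for 4 members over the mean of the strains (11.8% of genes), which were Mfsd2a, Slco1c1, Cldn5 and Tjp1, and for Mfsd2a and Slco1c1 in C57BL/6J mice (5.83% of genes). For Slco1c1 in C57BL/6J mice the effect at 9 h lay 0.80 ± 0.18 below that at 24 h on the log2 scale, and for Mfsd2a it lay 0.80 ± 0.17 above. Sham levels were not tested between times, as 9 h and experiment coincide. Mfsd2a of C57BL/6J sham mice was at 19.5 ± 4.89 CPM at 9 h, 14.1 ± 2.47 CPM at 24 h and 12.8 ± 3.03 CPM at 72 h.

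Among sham mice of all times, Slco1c1 was higher in eRestore than in C57BL/6J mice, by 1.00 ± 0.09 on the log2 scale (adjusted p = 3.79e-13). It was the only one of the 10 members to pass, beside 4.29% of 18994 genes, and had the rank 3 of all genes by p. It was at 86.1 ± 21.2 TPM in 17 sham eRestore mice and at 40.4 ± 5.85 TPM in 18 sham C57BL/6J mice. Of all 50 eRestore mice, 46 lay above the highest C57BL/6J mouse (86.2 CPM), and 4 lay within the C57BL/6J range, at 57.5 and 59.2 CPM (CHI, 9 h), 64 CPM (sham, 24 h) and 69.6 CPM (CHI, 24 h). Of the 55 gKO mice, 54 lay within that range and 1 sham mouse at 24 h lay at 136.1 CPM, among the eRestore mice.

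These mice stand apart from their strain and bear on the CHI effect of Slco1c1. The other 10 CHI eRestore mice at 9 h were at 149.9 ± 16.2 CPM, beside 134.7 ± 38.5 CPM for all 12 and 140.2 ± 24.7 CPM for the 6 sham mice. Without the gKO mouse at 136.1 CPM, the other 5 gKO sham mice at 24 h were at 69.7 ± 11.1 CPM, beside 64.7 ± 8.58 CPM in CHI mice, where all 6 had given a log2 fold change of -0.37 (adjusted p = 0.485). No test was made without these mice, since the level of the gene itself set them apart.

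None of the 10 members passed between sham gKO and sham C57BL/6J mice (4.51% of genes passed), and none had an unadjusted p under 0.05. In sham nRestore mice 3 members were lower than in C57BL/6J mice, beside 12% of genes. These were Slc2a1 (-0.37 ± 0.10, adjusted p = 0.0118), Ocln (-0.30 ± 0.09, adjusted p = 0.0164) and Pecam1 (-0.26 ± 0.09, adjusted p = 0.0382). When the fit held the experiment and not age, none of the 3 passed (adjusted p = 0.272, 0.171 and 0.947), whereas the difference of Slco1c1 in eRestore mice was 1.04. The summed endothelial markers of sham mice at 9 h were 265 to 305 CPM in nRestore and 275 to 452 CPM in C57BL/6J mice, and their part in these differences was not tested.

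Other genes of the barrier were described from lists written with the members, in the fit over all strains at 9 h, where 23.9% of genes passed. Of 19 other junction genes, 1 rose, Esam (0.24 ± 0.06, adjusted p = 0.00227), and 6 fell, among them Nectin2 (-0.41 ± 0.08) and Jam2 (-0.13 ± 0.05), with a median of -0.09 over the list. Of 15 other solute carriers tested, 2 rose and 5 fell. The partners Slc3a2 (0.21 ± 0.05) and Slc7a5 (0.22 ± 0.05), which together form the large neutral amino acid transporter, rose, while Slc22a8, an organic anion transporter (5.31 ± 1.56 CPM in CHI and a mean of 10.3 CPM in sham mice, -0.93 ± 0.10, adjusted p = 1.64e-10), Slc38a5, a glutamine transporter (-1.18 ± 0.16, adjusted p = 5.51e-08), and Slc6a6, the taurine transporter (-0.12 ± 0.03), fell. Markers of the choroid plexus also fell in this fit, and their part in the values of these carriers was not tested. Of 7 efflux pumps, Abcb1b (0.22 ± 0.07) and Abcc4 (0.20 ± 0.07) rose and Abcc6 (-0.74 ± 0.21) and Abcc5 (-0.18 ± 0.06) fell. Abcb1b is the near copy of Abcb1a, whose values are uncertain, and whether the 2 genes shared reads was not examined. Of 11 genes of transcytosis and caveolae, 3 rose and none fell, namely Cavin1, which coats caveolae (33.3 ± 5.51 CPM in CHI and a mean of 19.8 CPM in sham mice, 0.73 ± 0.05, adjusted p = 4.23e-17), the insulin receptor Insr (0.11 ± 0.03) and Cav2 (0.14 ± 0.05). The median log2 fold change was -0.10 over the solute carriers, -0.01 over the efflux pumps and 0.11 over the transcytosis list, beside -0.003 over all genes tested.

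**Figure D5:**
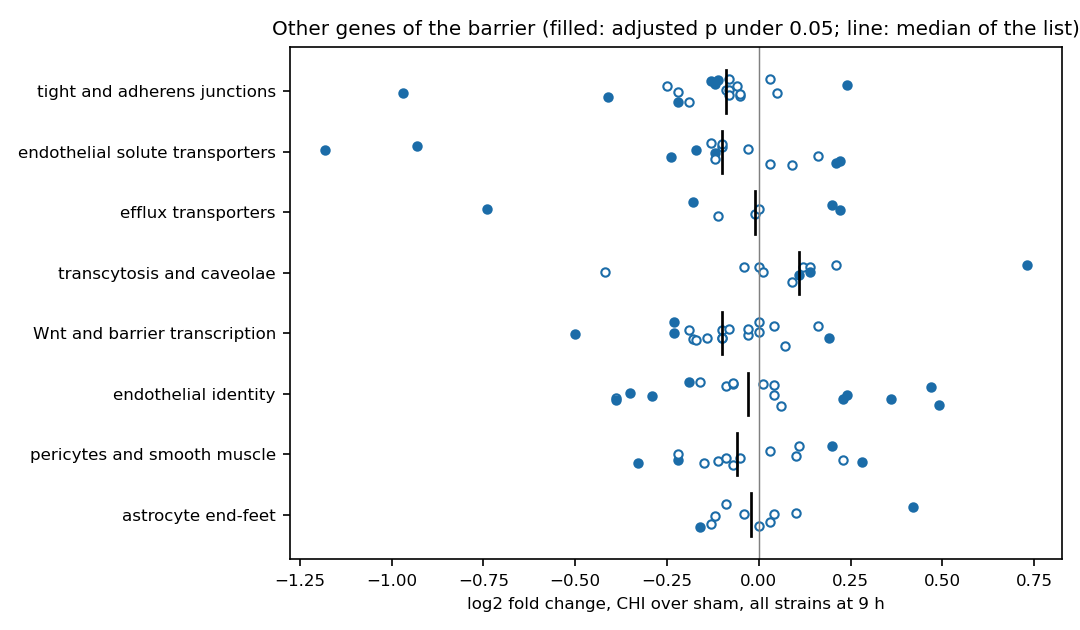
Log2 fold change of CHI over sham over all strains at 9 h (x axis) of other genes of the barrier, by list, with filled points for an adjusted p under 0.05 and a line at the median of each list. Cavin1 stands farthest to the right (0.73) and Slc38a5 (-1.18) farthest to the left.

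Signalling genes and genes of the vessel wall and end-feet were described in the same fit, and several of these lists passed at a share near that of all genes (23.9%). Of 19 genes of Wnt signalling and barrier transcription, Apcdd1 rose (0.19 ± 0.06) and the ligands Wnt7a (-0.50 ± 0.08, adjusted p = 1.8e-06) and Wnt7b (-0.23 ± 0.06) and the target Nkd1 (-0.23 ± 0.05) fell. Of 18 endothelial identity genes, 5 rose, with Adgrl4 (0.49 ± 0.08), Ly6c1 (0.47 ± 0.09) and Rasip1 (0.36 ± 0.08), and 4 fell, with Tie1 (-0.39 ± 0.08), Tek (-0.35 ± 0.07) and Flt1 (-0.19 ± 0.05), around a median of -0.03. Of 14 genes of pericytes and smooth muscle, Pdgfrb (0.20 ± 0.05) and Kcnj8 (0.28 ± 0.08) rose and Myh11 (-0.33 ± 0.07) and Atp13a5 (-0.22 ± 0.07) fell. Of 10 genes of astrocyte end-feet, Gjb6, a gap junction gene, rose (0.42 ± 0.07) and Agrn fell (-0.16 ± 0.05). Of 16 vascular growth and permeability signals, 6 rose and 2 fell: Mmp3 (5.12 ± 0.60), Timp1 (1.53 ± 0.27) and Angptl4 (0.85 ± 0.17) rose, and Apln (-0.36 ± 0.07) and the endothelin receptor Ednrb (-0.25 ± 0.05) fell. Mmp3 was low, at a mean of 0.457 CPM in CHI and 0.00809 CPM in sham mice, and so was Timp1, at 0.587 and 0.202 CPM. The median log2 fold change was -0.10 over the Wnt list, -0.06 over the pericyte list, -0.02 over the end-foot list and 0.11 over the vascular signals.

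The genes whose CHI effects over the 12 comparisons were closest to those of a member were named by the root mean square difference of the log2 fold changes, among genes tested in all 12 and called in at least 1. Closest to Mfsd2a were Prkab2 (0.087), Sdc4 (0.095) and Zfand4 (0.10), among 3070 genes with a median difference of 0.419. Closest to Slc2a1 were Errfi1 (0.064), Fzd2 (0.079) and Adipor2 (0.095), and closest to Slco1c1 were Bdnf (0.102), Midn (0.117) and Nr4a2 (0.118). Closest to Pecam1 were Fbxo6 (0.058), Ajap1 (0.064) and Gclc (0.069), to Cldn5 Grik4 (0.087), Svop (0.093) and Amph (0.096), and to Tjp1 Hapstr1 (0.051), Prps2 (0.056) and Cry2 (0.058). The 12 comparisons are the only points, and those of 1 strain and time share mice for all genes.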

How the data were processed

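RNA of 1 hemisphere from each of 200 mice was sequenced from poly(A)-selected libraries as paired-end reads. With nf-core/rnaseq, the authors aligned reads to GRCm39 (STAR) and estimated transcript abundance (Salmon), and the submitters' processing notes also name FastQC and DESeq2. The authors deposited estimated counts per gene, which are not normalised, and TPM, scaled by Salmon for transcript length and library size. The annotation release and strandedness are not given in the sources used here. All columns were mapped to mice by their labels.

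After rounding of the estimated counts, tests were run in edgeR 4.0.16 (R 4.3.3, limma 3.58.1) by its quasi-likelihood method with TMM factors. A gene was kept where 10 or more counts were reached by a number of mice equal to the smaller group. CHI was compared with sham within each strain and time with sex and age as covariates, and over all strains with strain added. Separate fits tested differences of the CHI effect between strains, times and sexes, and sham mice between strains. Benjamini-Hochberg adjustment ran over all genes tested, and a gene passed under 0.05. CPM values were TMM-normalised. The genes named were the 10 members, Il1r1, up to 3 genes per list and direction with the smallest p among those that passed over all strains, and the 3 genes closest in pattern to each member called. Pde3a and Slco1a4 were chosen after values were seen. The members and lists were chosen with earlier results of these data known. Other lists were choroid plexus, glucocorticoid response, fibroblasts, microglia, neurons, oligodendrocytes, blood leukocytes, erythroid cells and pituitary.

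Alternatives were DESeq2 1.42.0, DESeq2 with gene-length offsets, RLE factors, no filter, no covariates, experiment in place of age, the largest experiment, an endothelial covariate and leaving out sham mice or strains. Each experiment alone, a choroid plexus covariate and leaving out mice against the sex label were added after the data were seen. The edgeR and DESeq2 fits were tested on simulated data. Replicate numbers only name mice, in accession order. Labels do not say whether mice shared cages or litters. Reads carried no molecular identifiers.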

Additional observations from a re-analysis of the deposited data

Results flagged for a closer look

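The CHI effect differed between 9 h and a later time for 13 combinations of member and fit, by the test of the difference itself. In each of these fits 10 members were tested. Between 9 and 24 h, 9.63% of all genes also differed over the mean of the strains and 4.3% in C57BL/6J mice. Between 9 and 72 h, these shares were 11.8% and 5.83%. On the log2 scale, the effect at 9 h minus that at 24 h was 0.56 for Mfsd2a, 0.40 for Cldn5 and 0.29 for Pecam1 over the mean of the strains, and 0.80 for Mfsd2a, -0.80 for Slco1c1 (adjusted p = 0.00166), 0.62 for Slc2a1 (adjusted p = 0.0143) and 0.51 for Pecam1 (adjusted p = 0.0139) in C57BL/6J mice. The effect at 9 h minus that at 72 h was 0.58 for Mfsd2a, -0.41 for Slco1c1 (adjusted p = 0.00154), 0.33 for Cldn5 (adjusted p = 0.00522) and -0.15 for Tjp1 (adjusted p = 0.0257) over the mean of the strains, and 0.92 for Mfsd2a and -0.84 for Slco1c1 in C57BL/6J mice. The 9 h mice came from other experiments than the later mice, so time and experiment cannot be told apart.

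Of 160 combinations of a member and a group of 4 to 10 mice, 10 held a mouse far from the others. Chance alone gives about 1 in 20, so this share is near that of chance, and some of the 10 fell on the same mouse. Cdh5 was low in 1 sham mouse at 72 h of C57BL/6J (9.25 CPM, the others 14.6 to 16.4), of eRestore (10.1 CPM, the others 15.4 to 17.2) and of gKO mice (6.5 CPM, the others 13.1 to 18). Abcb1a was low in the same eRestore mouse (29.3 CPM) and gKO mouse (24.5 CPM), in a gKO sham mouse at 24 h (21.1 CPM) and in an nRestore sham mouse at 72 h (29.2 CPM), which also had the lowest Slc2a1 (49.4 CPM). In these 5 sham mice the summed endothelial markers were also below every other mouse of their group, at 272 beside 322 to 386 CPM, 251 beside 319 to 351, 229 beside 297 to 342, 234 beside 301 to 325 and, for the gKO mouse at 24 h, 217 beside 298 to 353 CPM. The eRestore, gKO and nRestore mice at 72 h all came from the experiment labelled eIL-1-56. It held 1 C57BL/6J, 1 gKO, 2 eRestore and 2 nRestore sham mice at 72 h. The C57BL/6J mouse came from nIL-1-60 and the gKO mouse at 24 h from NiL-1-24. The part of the experiment in these levels was not tested. The gKO mouse at 24 h is the one with 136.1 CPM of Slco1c1.

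In the other direction, Mfsd2a was high in 1 CHI nRestore mouse at 72 h (16.7 CPM, the others 9.3 to 11.1), which is the mouse whose sex-linked RNA went against its label. Plvap was high in 1 CHI nRestore mouse at 24 h (5.56 CPM, the others 2.77 to 3.76).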

How the results depend on the processing

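In C57BL/6J mice at 9 h, Mfsd2a (log2 fold change 0.65 to 1.25) and Slc2a1 (0.44 to 0.72) passed under all 17 alternatives, and Slco1c1 (-0.98 to -0.70) and Pecam1 (0.31 to 0.46) under 16. The exception was the experiment labelled eIL-1-80 alone, where 2 members passed. Over all strains, Mfsd2a passed under all 16 alternatives, Pecam1 under 13, Cldn5 under 12, Slco1c1 and Tjp1 under 11 each and Slc2a1 under 3. In both sets of alternatives the largest experiment and eIL-1-76 alone are the same fit, which was counted under both names. The number of members called over all strains was 1 in TM-2-33, 2 in eIL-1-80, 2 in eIL-1-76, which is the largest experiment, and 3 without C57BL/6J mice (3 to 5 with a strain left out). In gKO mice it was 3 with DESeq2 and 1 with gene-length offsets. In eRestore mice it was 1 with either DESeq2 fit and 2 with the endothelial covariate, and in nRestore mice 1 with either DESeq2 fit, the endothelial covariate or no covariates and 2 without a filter. With a sham mouse left out in turn, the number was 4 to 4 in C57BL/6J, 0 to 0 in gKO, 0 to 2 in eRestore and 0 to 1 in nRestore mice at 9 h, and 0 to 0 at 24 and 72 h. In sham nRestore mice it was 0 with experiment in place of age. The causes were not tested.

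Direction turned only for members that did not pass in the comparison concerned. In C57BL/6J mice these were Ocln (0.02 in eIL-1-76, the largest experiment, and -0.16 to 0.06 with a sham mouse left out), Cdh5 (-0.01 to 0.14 with a sham mouse left out), Plvap (-0.05) and Abcb1a (-0.09) in eIL-1-80, and Abcb1a with a sham mouse left out (-0.02 to 0.10). For Slc2a1, which passed in C57BL/6J mice but not in these strains, it was -0.01 in gKO mice with experiment in place of age, -0.05 to 0.14 with a sham mouse left out, and -0.11 in eRestore mice of the largest experiment. Over all strains Cdh5 was 0.01 in eIL-1-80 and 0.10 without gKO mice, and Abcb1a was 0.07 in TM-2-33, 0.02 in eIL-1-76, 0.03 without gKO and 0.01 without nRestore mice. No paired analysis was possible because the replicate numbers used here only name mice in accession order and pair none, and the experiment entered as a term or by fitting each alone. The number of all genes called at 9 h moved by over 1.5 times as well, from 2385 to 1226 and 279 in the 2 experiments of C57BL/6J mice, from 33 to between 0 (largest experiment) and 218 (DESeq2) in gKO, from 1222 to between 137 (largest experiment) and 1984 (DESeq2) in eRestore, from 102 to between 49 (choroid plexus covariate) and 806 (no filter) in nRestore mice, and from 4483 to 327, 1530 and 1490 in the 3 experiments and 2258 without C57BL/6J mice. At 24 h over all strains it moved from 274 to between 23 (largest experiment) and 471 (DESeq2), with 42 without C57BL/6J and 72 without gKO mice. With 4 to 6 sham mice a group, small differences in a single strain could not be detected.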

Other observations

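Slco1c1 lies 16.5 kb from Pde3a, which encodes a phosphodiesterase, and Pde3a was also higher in sham eRestore than in sham C57BL/6J mice, by 1.47 ± 0.13 on the log2 scale (edgeR, adjusted p = 7.48e-13). Of 17 genes annotated within 500 kb, a window chosen after values were seen, 3 were tested and Pde3a alone passed, while the related transporter gene Slco1a4, 234.5 kb away, differed by 0.01 ± 0.07. In the 4 eRestore mice with Slco1c1 within the C57BL/6J range, Pde3a was at 5.25, 3.58, 7.59 and 7.78 CPM, beside 1.9 to 9.41 CPM in the 61 C57BL/6J mice and a median of 17 CPM in eRestore mice. The genes did not go together in every mouse. In eRestore sham replicate 3 at 9 h, Slco1c1 lay above the C57BL/6J range, but Pde3a, at 5.14 CPM, lay within it. In the gKO mouse with 136.1 CPM of Slco1c1, Pde3a was at 20.8 CPM, beside a median of 6.63 CPM in gKO mice. No cause of this was tested.

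Among lists that do not belong to the barrier, in the fit over all strains at 9 h, where 23.9% of all genes passed, 5 of 11 genes of the glucocorticoid response rose, with Fkbp5 (1.36 ± 0.14), Mt2 (0.94 ± 0.14) and Cdkn1a (1.14 ± 0.17), and Per1 fell (-0.20 ± 0.07). Of 8 microglial genes 5 fell, with P2ry12 (-0.62 ± 0.09), Sall1 (-0.27 ± 0.05) and Aif1 (-0.48 ± 0.10). Of 8 fibroblast genes Col3a1 (1.27 ± 0.22) and Pdgfra (0.20 ± 0.04) rose and 4 fell, with Lum (-0.67 ± 0.16), Slc6a13 (-0.69 ± 0.17) and Col1a2 (-0.47 ± 0.13). Of 8 neuronal genes Rbfox3 rose (0.17 ± 0.05), and of 8 oligodendrocyte genes Ermn fell (-0.35 ± 0.09). Of the choroid plexus genes that fell, Kcnj13 (-2.30 ± 0.67), Kcne2 (-2.27 ± 0.66) and Cldn2 (-2.14 ± 0.64) had the smallest p. In edgeR no gene passed among 3 blood leukocyte, 5 erythroid and 4 pituitary genes tested. The median log2 fold change was 0.23 over the glucocorticoid, -0.20 over the microglial, -0.40 over the fibroblast, 0.06 over the neuronal, -0.07 over the oligodendrocyte, 0.08 over the leukocyte, 1.17 over the erythroid and -0.06 over the pituitary list, beside -0.003 over all genes.

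At 24 h over all strains, where 1.48% of all genes passed, Abca1, a cholesterol exporter, rose (0.25 ± 0.04), as did Timp1 (1.76 ± 0.32) and Gad2 (0.25 ± 0.06), and Apln (-0.35 ± 0.07), Vegfa (-0.20 ± 0.05) and Pdk4 (-0.19 ± 0.04) fell. At 72 h over all strains, where 0.706% of all genes passed, 5 of 8 microglial genes rose, though none passed in a single strain, and so did Col3a1 (0.73 ± 0.14), Col1a1 (0.62 ± 0.14) and Timp1 (1.52 ± 0.28). The pituitary hormone genes Gh (-3.56 ± 0.71) and Prl (-2.79 ± 0.64) also passed, but their median was 0 CPM in both groups, and the highest sham mouse was at 54.9 CPM of Gh and 42.5 CPM of Prl. Of the lists of junctions, solute carriers, transcytosis, Wnt signalling, endothelial identity, pericytes and end-feet, no gene passed at 24 or 72 h over all strains. In C57BL/6J mice alone, the pericyte gene Rgs5 passed at 24 h (-0.23 ± 0.05, edgeR adjusted p = 0.0454).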
